A study of Caenorhabditis elegans with 12 samples.

Results

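The cuticlin and cuticlin-like genes of Caenorhabditis elegans were described across 3 genotypes. They were chosen by symbol alone, as every gene named cut or cutl followed by a number, which gave 35 of the 46778 genes in the deposited table: 6 cut genes and 29 cutl genes. Whole larvae of the wild-type strain N2 (WT), of ced-3(n717), a mutant of the cell death caspase, and of pmk-1(km25), a mutant of a p38 MAP kinase of immunity, were compared. Eggs from bleached young adults hatched without food over 24 h, and the larvae then fed on OP50 bacteria for 18 h at 20 °C, by when over 90% of WT worms were L3 (third-stage) larvae. Each worm sample gave a library of total mRNA and one of ribosome-protected fragments (RPF, the footprints of ribosomes on mRNA), so 6 samples, 2 per genotype, gave 12 libraries. The feeding time was set by WT, so developmental stage and genotype cannot be told apart in the mutants.

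Cuticlins are proteins of the insoluble, cross-linked residue that stays when the collagens of the nematode cuticle are dissolved. Most carry a zona pellucida (ZP) domain, with which extracellular proteins polymerise into filaments, and the cutl genes were named for that likeness. Cuticlins are best known from the alae, the ridges that seam cells lay down along the body of some stages, and from the narrowing of the dauer larva. A new cuticle is built before each moult, and mRNAs of many cuticle genes rise and fall with every larval stage.

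Libraries held 15471380 to 17150137 counts for mRNA and 6708805 to 10115985 for RPF, of which the 35 genes took 2417 to 22717 and 2470 to 35599. Levels are given in CPM, which scale every library to a common total with TMM factors; 3 counts amounted to 0.175 to 0.194 CPM in an mRNA library and to 0.297 to 0.447 CPM in an RPF library. The replicates of each mutant lay further apart than those of WT: 6.43% of genes in ced-3 and 5.81% in pmk-1 differed by more than 2-fold between mRNA replicates, against 0.813% in WT (on the scale of log2 CPM + 0.5). With 2 libraries per group, such a difference does not show which replicate stands apart. Summed mRNA levels of 5 hypodermis markers, the tissue that secretes most of the cuticle, lay between 349 and 378 CPM in 5 libraries and at 529 CPM in pmk-1 replicate 1, where the collagen dpy-7 had 147 CPM against 7.75 to 43.4 CPM elsewhere and the junction gene ajm-1 223 CPM against 213 to 248 CPM. Those of 5 seam cell markers, of which 4 could be tested, lay between 125 and 186 CPM. Of these lists, no tested marker passed in mRNA between any genotypes by edgeR; 2 to 3 had an unadjusted p below the threshold in each comparison and DESeq2 called at most 1. Of 4 markers of later stages (the L4 larva or the adult), the sum was 0 to 0.608 CPM in mRNA. The targeted genes gave no check of the labels here, since counts per gene do not show which part of a gene an allele changes.

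All 35 genes were protein coding in the WBcel235 annotation of Ensembl, with exons of 810 to 3637 bases in total. They were spread over every chromosome, with 9 on II, 7 on I, 5 each on IV, V and X, and 4 on III. The closest neighbours were 2 pairs: cut-2 and cutl-1 on chromosome V were 8835 bases apart, and cutl-26 and cutl-28 on IV were 10359 bases apart. Another annotated gene overlapped 21 of the 35, a protein-coding one 12 of them, including cutl-5, cutl-6, cutl-8 and cutl-11 on the opposite strand. Whether counting used the strand was not stated, so the values of these genes may include reads of their partners.

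A single gene, cut-2, stood above the rest of the family. It lies on chromosome V at 13414949 to 13416064 (plus strand) and encodes a repeat-rich cuticlin without a ZP domain that peroxidases can cross-link through dityrosine in the test tube. Per kilobase of exon it had 66.9 ± 2.43 CPM in WT mRNA (SD, n = 2), above cutl-10 at 44.1 ± 3.85, cutl-20 at 20.1 ± 3.22 and cutl-26 at 12.5 ± 2.14, and the libraries of each of these 4 did not overlap those of the next. Below them cutl-19, cutl-14, cutl-24, cutl-15, cutl-23, cutl-3 and cutl-11, from 9.06 down to 5 CPM per kilobase, overlapped their neighbours in the order. cut-2 also ranked first per kilobase by its mean in ced-3 mRNA (698 ± 508) and in WT footprints (353 ± 135). In pmk-1 mRNA it was first in replicate 2, at 68 CPM per kilobase against 34.6 for cutl-10, but below cutl-10 in replicate 1, at 17.5 against 22.3.

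At the other end, 6 genes were too low for a test in either assay, with 0 to 15 counts in every library: cut-1 and cut-3, whose proteins build the alae of the dauer larva and of the first larval stage, and cutl-1, cutl-2, cutl-7 and cutl-13. At this depth they were near the limit of detection in every genotype. cut-5, another cuticlin of alae, was tested in mRNA only and cutl-6 in RPF only. This left 28 genes tested in mRNA, 28 in RPF and 27 in both. A gene could pass the filter on low counts through 1 genotype alone, so counts over the tested genes describe those genes and not the family.

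**Figure D1:**
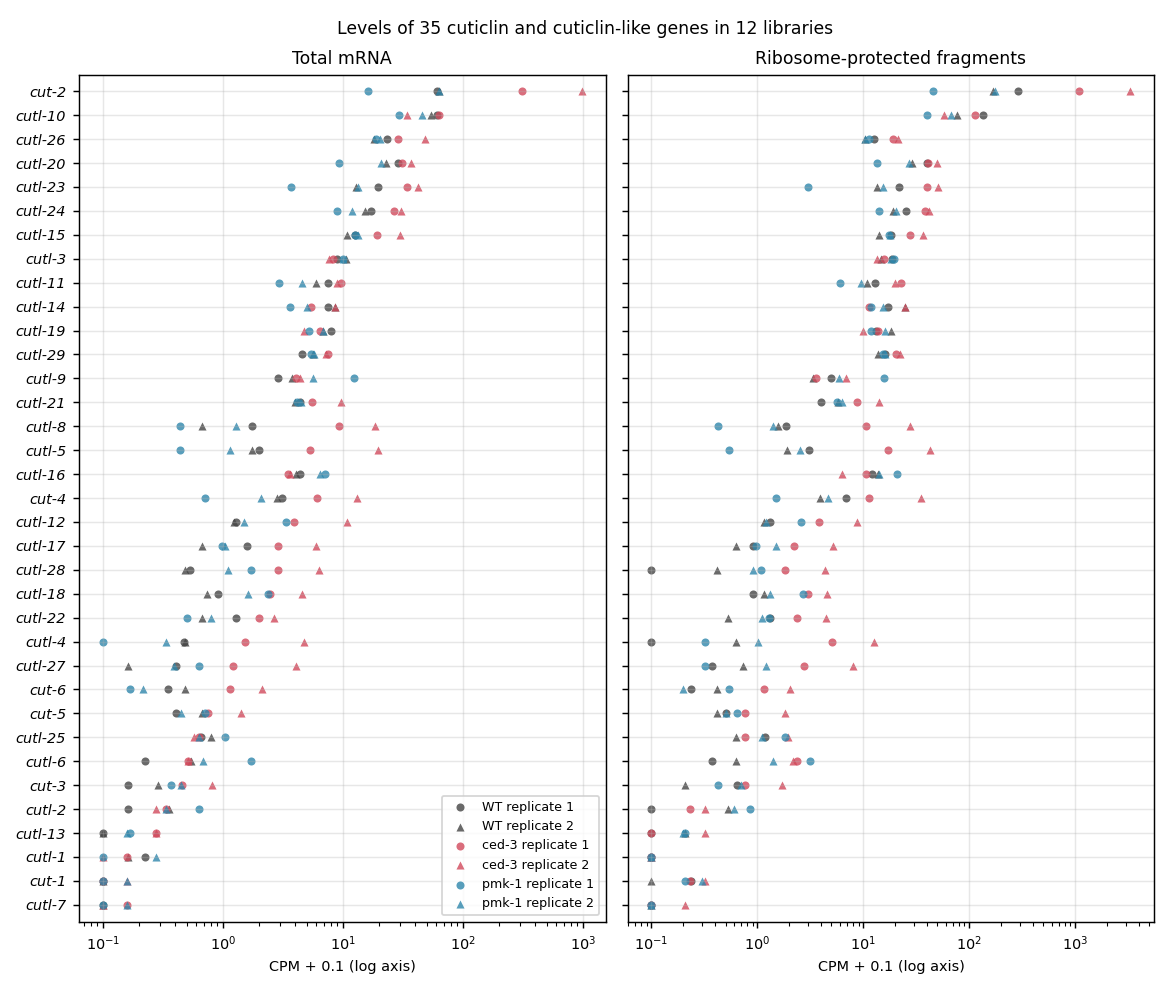
Level of each of the 35 genes in every library, in CPM plus 0.1 on a log axis, for total mRNA (left) and ribosome-protected fragments (right); colours give the genotype, circles replicate 1 and triangles replicate 2. cut-2 lies to the right in both panels, at 980 CPM of mRNA in ced-3 replicate 2 against 60.4 and 63.6 CPM in WT, and 6 genes stay near 0 throughout.

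The comparison of ced-3 with WT asked which mRNAs differed in worms without the caspase. cut-2 mRNA had 60.4 and 63.6 CPM in the WT replicates, 314 and 980 CPM in ced-3 and 16.2 and 63 CPM in pmk-1. Both ced-3 libraries lay above all others, with a 3.12-fold gap between them, while pmk-1 overlapped WT. The log2 fold of ced-3 against WT was 3.38 ± 0.82 (SE), which did not pass over all genes (adjusted p = 0.0933, edgeR), and without ced-3 replicate 2 it was 2.35. In whole worms, fewer cells of a type and less RNA per cell cannot be told apart in any of these values. The replicates are described as independent biological ones, but separate cultures are not mentioned, so each p measures only the spread between these samples.

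cut-2 took most of the family's summed mRNA level in ced-3, but not in WT or pmk-1. All 35 genes together had 284 and 258 CPM of mRNA in WT, 607 and 1351 CPM in ced-3, and 163 and 249 CPM in pmk-1. Without cut-2 the sums were 224 and 194 CPM in WT, 293 and 371 CPM in ced-3, and 147 and 186 CPM in pmk-1. The ced-3 libraries were thus above WT and pmk-1 below it with and without cut-2, and the share of cut-2 in the sum was 51.7% and 72.5% in ced-3 against 21.2% and 24.7% in WT.

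**Figure D2:**
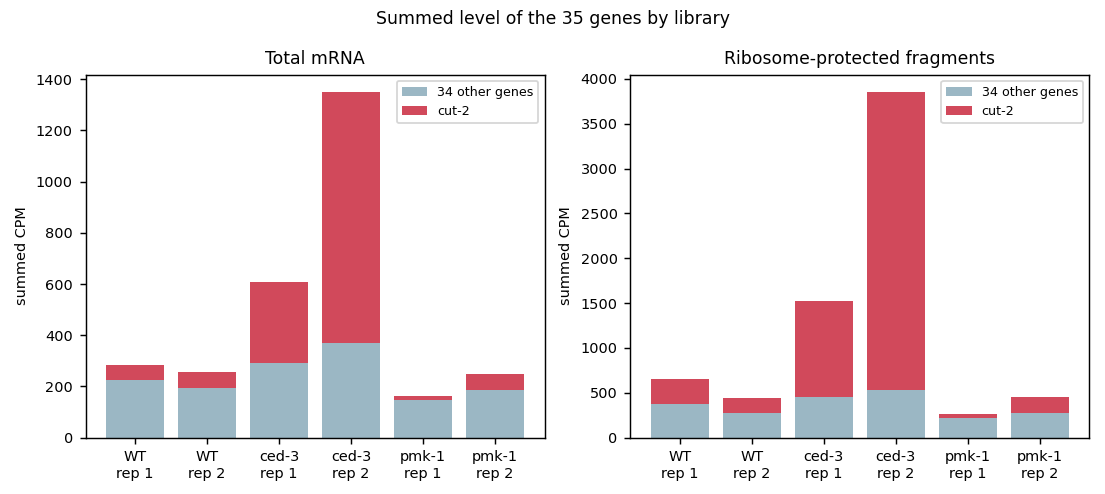
Summed CPM of the 35 genes in each library for total mRNA (left) and ribosome-protected fragments (right), with cut-2 in red and the 34 other genes in blue; the panels have different scales. In ced-3 replicate 2, cut-2 made up 72.5% of the summed mRNA level and 86.1% of the summed footprint level.

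One gene of the 28 tested, cutl-28 (chromosome IV, 684497 to 688340, plus strand), passed for ced-3 against WT, where 1.77% of all tested genes passed. Its mRNA had 0.434 and 0.382 CPM in WT, 2.77 and 6.24 CPM in ced-3, and 1.62 and 1 CPM in pmk-1. These values stood for 7 and 6 counts in WT, 47 and 105 in ced-3, and 24 and 17 in pmk-1. cutl-28 reached the minimum count of the filter in the mutants alone, so it could be tested only by being high there. WT was lowest, pmk-1 intermediate and ced-3 highest, with no overlap of the groups. It rose in ced-3 by 3.44 ± 0.56 on the log2 scale (adjusted p = 0.0499, edgeR; 5.3e-05 by DESeq2). The call ended with either WT library left out (adjusted p = 0.325 and 0.398) or on removal of ced-3 replicate 2 (0.088), while the log2 fold stayed between 2.74 and 3.91 over the alternatives. It also ended with RLE factors (0.0511) and with the compared genotypes alone (0.0527).

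Among the 28 tested genes, the median log2 fold of ced-3 against WT was 1.11, from -0.42 to 3.71, beside 0.00 over all genes tested. Both ced-3 libraries lay above both WT libraries for 22 of them, where 30.1% of all genes did so, and below for 4 (cutl-3, cutl-16, cutl-19 and cutl-25), where 29.7% did. An unadjusted p below the threshold was found for 17 of the 28, beside 23.5% of all genes, and DESeq2 called 11 higher, where it called 7% of all genes higher. The 28 include cut-5, cut-6, cutl-4 and cutl-27, which reached the minimum count of the filter in ced-3 alone, and cutl-28. The filter thus enters into the median and the counts of genes given here. With no filter on low counts the median was 1.12 over 35 genes. Without ced-3 replicate 2 the median was 0.73.

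cutl-8 had 1.67 and 0.573 CPM of mRNA in WT, 9.14 and 18.3 CPM in ced-3, and 0.338 and 1.18 CPM in pmk-1. cutl-5 had 1.92 and 1.66 CPM in WT, 5.19 and 19.6 CPM in ced-3, and 0.338 and 1.06 CPM in pmk-1. For both genes ced-3 lay apart from the other genotypes, and the replicates of each mutant differed by 2.00- to 3.78-fold. The log2 folds of ced-3 against WT were 3.60 ± 0.69 for cutl-8 (adjusted p = 0.0678, edgeR) and 2.79 ± 0.75 for cutl-5 (adjusted p = 0.11).

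Other abundant members differed less. cutl-10, the second most abundant per kilobase, had 61.5 and 54.3 CPM in WT mRNA, 62.8 and 34.3 CPM in ced-3, and 29.3 and 45.5 CPM in pmk-1. Its ced-3 libraries spanned those of WT, and both pmk-1 libraries lay below WT. cutl-15 had 12.5 and 10.7 CPM in WT, 19.1 and 29.7 CPM in ced-3, and 12.5 and 13.2 CPM in pmk-1, so that ced-3 lay above the others. cutl-3 stayed between 7.61 and 10.5 CPM in the 6 libraries, with ced-3 lowest. The log2 folds against WT were -0.26 ± 0.34, 1.07 ± 0.24 and -0.29 ± 0.17 for these genes in that order, with adjusted p of 0.693, 0.0763 and 0.345 by edgeR.

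For pmk-1 against WT, a comparison that shares its WT libraries with the one above, none of the 28 genes passed by edgeR or DESeq2, where edgeR called 0.421% and DESeq2 2.79% of all genes. An unadjusted p below the threshold was found for 7 of them, beside 9.51% of all genes. The median log2 fold was -0.24, from -1.66 to 1.65. The pmk-1 libraries lay below both WT libraries for 9 genes and above for 5, beside 23.6% and 22.5% of all genes, and overlapped WT for 14. The difference between the pmk-1 replicates set part of this: the cut-2 fold was -0.64 ± 0.76 with both pmk-1 libraries, 0.02 without replicate 1 and -1.94 without replicate 2. Without replicate 2, 2 members passed, 1 higher and 1 lower, among 388 genes in place of 57.

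**Figure D3:**
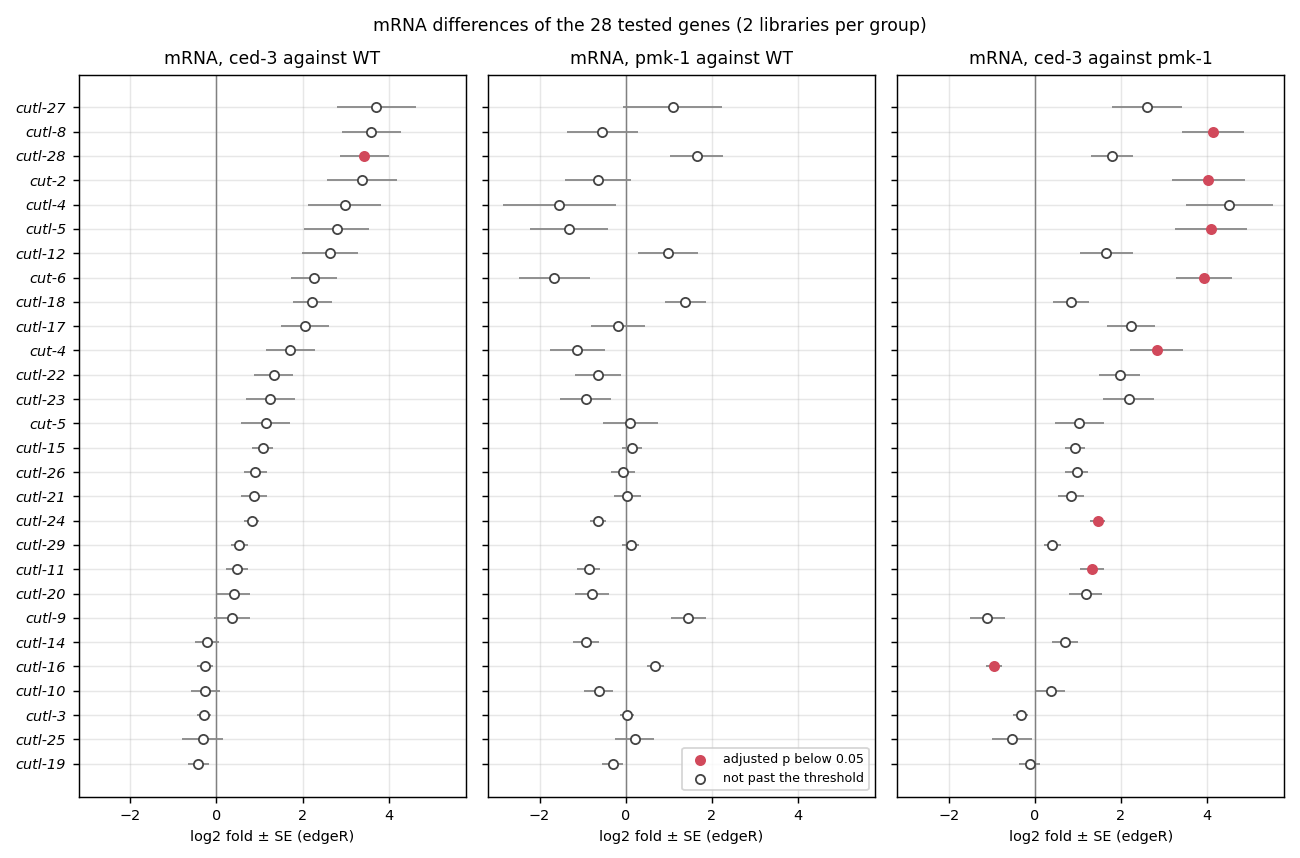
Log2 fold in mRNA with its SE for the 28 tested genes, ordered by the first panel: ced-3 against WT, pmk-1 against WT and ced-3 against pmk-1, 2 libraries per group; red points passed an adjusted p of 0.05 by edgeR over all genes. cutl-28 is the red point in the first panel, the second has none and the third has 8.

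Set directly against each other, the mutants differed at more members. In ced-3 against pmk-1 mRNA, 7 genes were higher in ced-3 (cut-2, cut-4, cut-6, cutl-5, cutl-8, cutl-11 and cutl-24) and 1 lower (cutl-16) among the 28, where 6.72% of all tested genes were higher and 2.5% lower. The median log2 fold of the 28, which include the genes tested through ced-3 alone, was 1.26, beside 0.00 over all genes. With no filter on low counts it was 0.95 over 35 genes. The groups did not overlap for 22 genes higher and 3 lower in ced-3, beside 30.4% and 28.8% of all genes. Markers of other tissues moved in the same comparison by edgeR: of 4 pharynx markers myo-1 and myo-2 were lower in ced-3 in mRNA and RPF, and of 5 intestine markers ges-1 was higher and ifb-2 lower in mRNA. Their part in the cuticlin differences was not tested.

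Of the cut genes, cut-2 was 16.3-fold more abundant in ced-3 than in pmk-1, a log2 fold of 4.03 ± 0.85 (adjusted p = 0.048, edgeR). Leaving out ced-3 replicate 2 made it 7.94-fold, and leaving out pmk-1 replicate 2 made it 39.8-fold. cut-4, on chromosome II at 10436136 to 10440087, had 3.04 and 2.74 CPM of mRNA in WT, 5.96 and 13 CPM in ced-3, and 0.608 and 2 CPM in pmk-1. WT lay between the mutants without overlap, and the fold of ced-3 against pmk-1 was 2.83 ± 0.61 (adjusted p = 0.0495), and 2.17 or 3.94 with those libraries left out. cut-6, whose ZP-domain protein shapes the dauer body (chromosome III, 10911460 to 10916665), was scarce, with 0.248 and 0.382 CPM in WT, 1.06 and 2.02 CPM in ced-3, and 0.0675 and 0.118 CPM in pmk-1. The order of genotypes was that of cut-4, from 4 and 6 counts in WT, 18 and 34 in ced-3 and 1 and 2 in pmk-1, with a fold of 3.93 ± 0.65 (adjusted p = 0.0314). Since cut-6 reached the minimum count of 10 in ced-3 alone, it could be tested only by being high there.

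Among the cutl genes, cutl-5 and cutl-8 exceeded pmk-1 in ced-3 worms by 4.10 ± 0.84 and 4.13 ± 0.72 on the log2 scale (adjusted p = 0.0446 and 0.0367, edgeR). Leaving out ced-3 replicate 2 made these 2.86 and 3.55, and leaving out pmk-1 replicate 2 made them 5.16 and 5.31. cutl-24, at 165077 to 169980 on chromosome IV, had 17.2 and 15.2 CPM in WT, 26.8 and 30.3 CPM in ced-3, and 8.92 and 11.8 CPM in pmk-1. cutl-11, on X at 11648188 to 11650851, had 7.37 and 5.92 CPM in WT, 9.62 and 8.86 CPM in ced-3, and 2.84 and 4.47 CPM in pmk-1. Both showed ced-3 highest and pmk-1 lowest with replicates close together, and their folds were 1.46 ± 0.18 (adjusted p = 0.0223) and 1.33 ± 0.27 (adjusted p = 0.0409). cutl-16, on II at 6441428 to 6443994, went the other way, with 4.28 and 4.01 CPM in WT, 3.42 and 3.51 CPM in ced-3, and 6.96 and 6.42 CPM in pmk-1. It was lower in ced-3 than in pmk-1, with a log2 fold of -0.95 ± 0.19 (adjusted p = 0.0408), and pmk-1 was the highest group.

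cutl-20 and cutl-23 were highest in ced-3 as well, and passed against pmk-1 by DESeq2 but not by edgeR. cutl-20 had 28.7 and 22.9 CPM in WT, 31 and 37.2 CPM in ced-3, and 9.19 and 20.8 CPM in pmk-1. cutl-23 had 19.6 and 12.7 CPM in WT, 34.5 and 42.5 CPM in ced-3, and 3.58 and 13.2 CPM in pmk-1. For cutl-23 the upper pmk-1 value reached into WT. Their folds of ced-3 against pmk-1 were 1.18 ± 0.39 and 2.18 ± 0.59 (adjusted p = 0.115 and 0.0796 by edgeR, 0.0366 and 0.00217 by DESeq2).

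The number of calls moved with the libraries in the fit, for the members as for all genes. In place of 8 member calls among 1247 genes, edgeR made 0 when WT replicate 1, WT replicate 2 or pmk-1 replicate 1 was left out (3, 3 and 64 genes) or when both mutants were fitted alone (0 genes). It made 1 when ced-3 replicate 2 was left out (377 genes). It made 13 in the absence of ced-3 replicate 1 (1821 genes) and 8 in that of pmk-1 replicate 2 (997 genes), and 5 of the 8 calls above were among them in either case. With no filter on low counts 10 members were called (1594 genes), 4 of them among the 8; cut-2 (adjusted p = 0.191, edgeR), cutl-5 (0.141), cutl-8 (0.0747) and cut-4 (0.0703) were not. DESeq2 called 16, 15 of them higher, where it called 15.4% of all genes.

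**Figure D4:**
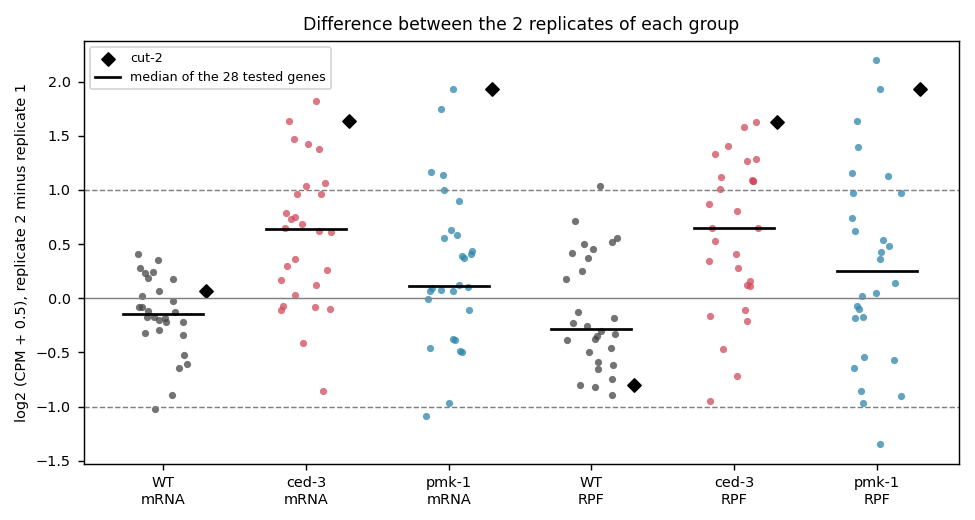
Difference between replicate 2 and replicate 1 of each group on the log2(CPM + 0.5) scale, 1 point per tested gene (28 in each assay), with the median as a black line and cut-2 as a black diamond; dashed lines mark 2-fold. In ced-3 the median is 0.64 in mRNA and 0.65 in footprints, against -0.15 and -0.28 in WT.

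Replicates of the mutants diverged for some of the same genes that separated the genotypes. In ced-3, replicate 2 was higher than replicate 1 for 22 of the 28 genes in mRNA and again for 22 in RPF, with medians of 0.64 and 0.65 on the log2 scale, beside 0.00 and 0.02 over all genes. More than 2-fold lay between the ced-3 mRNA replicates for 7 genes, between those of pmk-1 for 6 and between those of WT for 1 (cutl-8). cut-2 and cut-4 were beyond 2-fold in both mutants: cut-2 differed 3.12-fold in ced-3 and 3.89-fold in pmk-1, against 1.05-fold in WT. In RPF, more than 2-fold lay between replicates for 11 ced-3, 7 pmk-1 and 1 WT value, beside 10.2%, 6.82% and 2.86% of all genes. The part of these replicate differences in the folds above was not tested beyond leaving libraries out.

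Footprints of cut-2 followed its mRNA. cut-2 footprints had 289 and 166 CPM in WT, 1076 and 3321 CPM in ced-3, and 45.6 and 175 CPM in pmk-1. The ced-3 libraries again lay far above the rest, and pmk-1 overlapped WT. In ced-3 against WT none of the 28 genes tested in RPF passed by edgeR, where 0.0554% of all genes did; 19 had an unadjusted p below the threshold, beside 23.7% of all genes, and DESeq2 called 10 higher, where it called 6.8% of all genes higher. The fold of cut-2 was 3.27 ± 0.86 (adjusted p = 0.103). Both ced-3 libraries were above both WT libraries for 21 genes and below for 1, beside 29% and 26.6% of all genes, with a median log2 fold of 1.30 beside 0.01. In RPF too, several genes, among them cut-6, cutl-4 and cutl-28, reached the minimum count of 10 in ced-3 alone. The filter thus enters into these values. With no filter on low counts the median was 1.36 over 34 genes. Without ced-3 replicate 1, edgeR called 9 members among 1249 genes, in place of 0 among 7.

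For pmk-1 against WT in RPF, none passed by edgeR or DESeq2, where edgeR called 0.182% and DESeq2 2.22% of all genes, and 1 had an unadjusted p below the threshold, beside 8.68% of all genes. That gene was cutl-6, with 0.269 and 0.529 CPM of footprints in WT, 3.03 and 1.31 CPM in pmk-1, and 2.26 and 2.06 CPM in ced-3. Both mutants lay above WT, on 2 to 28 counts per library, with log2 folds of 2.35 ± 0.63 in pmk-1 (adjusted p = 0.38, edgeR) and 2.35 ± 0.64 in ced-3 (adjusted p = 0.101), which share the WT libraries. With 2 and 5 counts in WT, cutl-6 reached the minimum count of 10 in the mutants alone and could be tested only by being high there. A protein-coding gene on the opposite strand, with up to 3574 counts in a library, overlaps it. The median fold of the 28 genes in pmk-1 was 0.14 on the log2 scale; the groups did not overlap for 6 genes higher and 5 lower, beside 22% and 21.8% of all genes.

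Between the mutants, 6 genes had more footprints in ced-3 than in pmk-1 (cut-2, cutl-5, cutl-8, cutl-11, cutl-24 and cutl-26), where 6.05% of all genes did. None had fewer, where 2.56% of all genes did. An unadjusted p below the threshold was found for 20 genes, beside 29.8% of all genes, and the groups did not overlap for 20 higher and 2 lower, beside 31.3% and 31.4% of all genes. Genes tested in RPF through ced-3 alone, such as cut-6, cutl-4 and cutl-28, are among them. cutl-8 had 1.75 and 1.48 CPM in WT, 10.6 and 27.6 CPM in ced-3, and 0.325 and 1.31 CPM in pmk-1. cutl-5 had 2.96 and 1.8 CPM in WT, 17 and 42.2 CPM in ced-3, and 0.434 and 2.41 CPM in pmk-1. Both ced-3 libraries were the highest for each gene. The folds of ced-3 against pmk-1 were 4.51 ± 0.72 for cutl-8, 4.35 ± 0.79 for cutl-5 and 4.32 ± 0.90 for cut-2 (adjusted p = 0.0344, 0.039 and 0.0478, edgeR). The folds of cut-2 and cutl-5 were 3.28 and 3.54 without ced-3 replicate 2 and 5.60 and 6.06 without pmk-1 replicate 2, and neither gene was called with no filter on low counts (adjusted p = 0.162 and 0.115). The fold of cutl-8 was 3.66 and 5.83 on the same removals. Folds were smaller for cutl-11 (1.46 ± 0.27), cutl-24 (1.22 ± 0.24) and cutl-26 (0.90 ± 0.20), with adjusted p of 0.0373, 0.0398 and 0.0483.

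cutl-26, on chromosome IV at 698699 to 707735, was thus called in RPF only, with 12.6 and 10.2 CPM of footprints in WT, 18.9 and 21.2 CPM in ced-3, and 11.2 and 10.3 CPM in pmk-1. Its ced-3 libraries lay above the rest and pmk-1 overlapped WT. Its mRNA fold was as large, at 0.97 ± 0.27 (adjusted p = 0.0779, edgeR), so that a call in 1 assay does not show a difference between the assays. As in mRNA, 0 calls were made without WT replicate 1, WT replicate 2 or pmk-1 replicate 1 or with the mutants alone, where no gene of the table passed in any of these fits. With ced-3 replicate 2 dropped 1 was made (636 genes), and with ced-3 replicate 1 dropped 11 (1548 genes), in place of 6 among 1088; DESeq2 called 12 higher, where it called 9.4% of all genes higher.

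Whether footprints moved beyond mRNA was tested as translational efficiency (TE), the interaction of genotype and assay over all 12 libraries. None of 29 members passed for any pair of genotypes by edgeR or DESeq2, where edgeR called 0% of all genes and DESeq2 0.0073% (ced-3 against WT), 0.0365% (pmk-1 against WT) and 0%, and none had an unadjusted p below the threshold. The median TE difference was 0.09 for ced-3 against WT, 0.15 for pmk-1 against WT and 0.11 for ced-3 against pmk-1, beside 0.06, 0.01 and 0.06 over all genes. The smallest p for ced-3 belonged to cutl-6, with a TE difference of 1.89 ± 1.15 (adjusted p = 1, edgeR). For cut-2 the ratio of footprint CPM to mRNA CPM was 4.78 and 2.61 in the WT worm samples, 3.43 and 3.39 in ced-3 and 2.81 and 2.78 in pmk-1, so that ced-3 lay within WT. Its TE difference of ced-3 against WT was -0.06 ± 1.25 on the log2 scale, and 0.01 ± 0.24 with the worm sample as a block, which pairs the libraries of the same worms. That SE takes its spread from all genotypes, and the WT ratios were the furthest apart. With this block 0 members passed in any of the comparisons by edgeR. The lowest adjusted p of a member was 0.785 (cutl-6, ced-3 against pmk-1, edgeR). An unadjusted p below the threshold was found for 3 in ced-3 against WT, 1 in pmk-1 against WT and 1 in ced-3 against pmk-1. The share over all genes was not computed for this fit, so these counts are not read as a result on the members. Across the 27 members tested in both assays, folds in mRNA and RPF had a Pearson correlation of 0.95 for ced-3 against WT, 0.69 for pmk-1 against WT and 0.97 for ced-3 against pmk-1; these points share worm samples and are not independent.

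Within WT, footprints were set against mRNA for each member. Of 29 tested, 5 had more footprints than mRNA (cutl-3, cutl-14, cutl-16, cutl-19 and cutl-29) and 1 fewer (cutl-26), which is 17.2% and 3.45% of those tested, where 13.6% and 19.6% of all genes did. In either direction 20.7% of the members passed, beside 33.2% of all genes, so the number of calls does not set the members apart. cutl-29, on X at 8262420 to 8271021, had 4.52 and 5.6 CPM of mRNA and 16 and 13.5 CPM of footprints in WT. Its footprint values lay well above its mRNA values, with a log2 ratio of 1.33 ± 0.17 (adjusted p = 0.000516, edgeR), and it was called in each of 11 alternatives. cutl-16 had 4.28 and 4.01 CPM of mRNA and 12 and 13.7 CPM of footprints, a ratio of 1.42 ± 0.27 (adjusted p = 0.00402). cutl-26 had 23.1 and 18.1 CPM of mRNA and 12.6 and 10.2 CPM of footprints, a ratio of -1.07 ± 0.25 (adjusted p = 0.01), and ranked 4 per kilobase in mRNA but 12 in footprints.

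With the worm sample as a block, which pairs the mRNA and RPF of the same worms, 10 of the 29 members passed in place of 6. The share of all genes that passed went from 33.2% to 52.4%. The 10 members were the same 5 with more footprints, cut-2, cut-4, cutl-10 and cutl-11 besides, and cutl-26 with fewer. cut-2 then had a ratio of 1.61 ± 0.17 (adjusted p = 5.21e-06, edgeR), against 1.66 ± 0.91 (adjusted p = 0.202) without the block. Footprint CPM over mRNA CPM of cut-2 was 4.78 and 2.61 in the WT worm samples. The pairs were closer in the mutants, at 3.43 and 3.39 in ced-3 and 2.81 and 2.78 in pmk-1. The fit takes the spread of a gene from all genotypes, so the SE and p of these ratios do not measure the spread within WT alone. Without WT replicate 1 or 2, 1 and 2 members were called, among 1532 and 1656 genes in place of 4552. These ratios are relative to the other genes in each kind of library, and levels of mRNA and footprints were scaled separately.

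**Figure D5:**
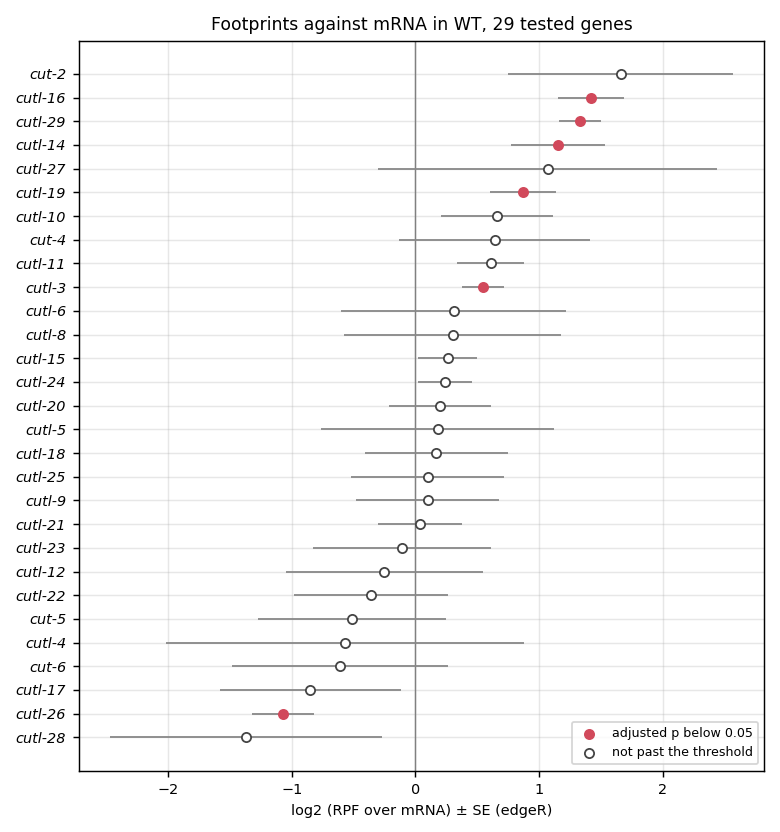
Log2 ratio of ribosome-protected fragments to mRNA in WT with its SE for the 29 tested genes, without a block for the worm sample; red points passed an adjusted p of 0.05 by edgeR over all genes. cutl-29 is at 1.33, cutl-16 at 1.42 and cutl-26 at -1.07.

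Other genes of cuticle building were set beside the cuticlins. Among 12 ZP-domain and other apical matrix genes, several of which belong to the temporary sheath that precedes a cuticle, the summed mRNA level was 350 and 446 CPM in WT, 571 and 742 CPM in ced-3, and 4248 and 1086 CPM in pmk-1. Here pmk-1 was the highest group and its replicate 1 the highest library, the one in which the cuticlin sum was lowest, at 163 CPM. None of the 12 passed for ced-3 or pmk-1 against WT by edgeR; 4 and 9 had an unadjusted p below the threshold, and DESeq2 called 2 and 8, each higher. The smallest p in ced-3 against WT belonged to dyf-7 and ram-5, ZP-domain genes of sensory organs, with folds of 1.60 ± 0.32 and 2.65 ± 0.57 (adjusted p = 0.0678 and 0.0749). In ced-3 against pmk-1, fbn-1, which encodes a fibrillin-related ZP protein, was lower by mRNA (-3.79 ± 0.68, adjusted p = 0.0379), and fbn-1, let-653 and sym-1 by footprints.

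The 5 genes of the machinery that cross-links tyrosines in the cuticle had summed mRNA levels in the same order as the cuticlins, with 421 and 345 CPM in WT, 583 and 633 CPM in ced-3, and 175 and 297 CPM in pmk-1. The sum was carried by mlt-7, with 304 and 232 CPM in WT, 417 and 428 CPM in ced-3, and 82.9 and 182 CPM in pmk-1. The order did not hold for bli-3, with 60.5 and 61.5 CPM in WT and 63.6 and 69.2 CPM in pmk-1, while the other genes kept it. Of the 5 genes, 3 were higher in ced-3 when set against pmk-1, in both assays. They were tsp-15 and doxa-1, partners of the dual oxidase BLI-3, and the peroxidase gene skpo-1, with mRNA folds of 0.80 ± 0.18, 1.34 ± 0.28 and 3.50 ± 0.73 (adjusted p = 0.0486, 0.0442 and 0.0431, edgeR). None of the 5 passed against WT in either mutant; 4 in ced-3 and 1 in pmk-1 had an unadjusted p below the threshold, and DESeq2 called 1 and 0. The smallest p in ced-3 against WT belonged to bli-3 (0.73 ± 0.17) and skpo-1 (1.72 ± 0.61), with adjusted p of 0.0794 and 0.171.

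Of 17 collagens of body shape and annuli, which include the hypodermis marker dpy-7, 15 were tested and 6 rose in ced-3 against WT mRNA, with none lower. The collagen sqt-1 rose by 3.88 ± 0.38 (adjusted p = 0.039) from 35.2 and 25.1 CPM in WT to 308 and 581 CPM in ced-3, with 30.7 and 36.3 CPM in pmk-1; lon-3 rose by 3.65 ± 0.38. Against pmk-1, 9 of the 15 were higher in ced-3, in mRNA and again in footprints. Of 9 genes of moulting, mlt-10 rose by 3.14 ± 0.31 (adjusted p = 0.0362, edgeR), and mlt-8 had a fold of 2.89 ± 0.62 (adjusted p = 0.0794). DESeq2 called 5 of the 9 higher and 1 lower in ced-3 than in WT. The mRNA of nhr-23 had 14.6 and 8.21 CPM in ced-3 against 27.8 and 27.8 CPM in WT, a difference that did not pass by edgeR. When ced-3 mRNA was set against pmk-1, 2 of the 9 were higher and 1 lower by edgeR. None of either list passed for pmk-1 against WT mRNA by edgeR. There 6 collagens and 5 moulting genes had an unadjusted p below the threshold, and DESeq2 called 6 and 3, each higher in pmk-1. Summed mRNA of the collagens was 522 and 395 CPM in WT, 3758 and 8471 CPM in ced-3, and 1042 and 665 CPM in pmk-1. Their median log2 fold of pmk-1 against WT was 0.36, so sqt-1 does not stand for all of them in pmk-1. Summed mRNA of the moulting genes was 199 and 194 CPM in WT, 457 and 749 CPM in ced-3, and 1033 and 285 CPM in pmk-1. The apical matrix and moult sums, like cut-2, were higher in ced-3 replicate 2 than in replicate 1, but they were highest in pmk-1 replicate 1, where cut-2 was lowest. Their part in the cuticlin differences was not tested.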

How the data were processed

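Per the file headers and the values, the authors deposited 1 table of whole-number read counts per gene, not normalized. Bowtie2, STAR, HTSeq and the build WBcel235 are named in the submitters' processing notes; versions, roles, annotation release, strand use and the handling of reads with several matches are not given in the sources used here. Genotypes were taken from the labels. The 6 mRNA libraries (13536 genes), the 6 RPF libraries (12633 genes) and all 12 (13698 genes, for TE and RPF against mRNA) were fitted in R 4.3.3 by the quasi-likelihood test of edgeR 4.0.16 (robust glmQLFit) after TMM scaling and filterByExpr (minimum count 10, total 15). P-values were adjusted by Benjamini-Hochberg over the whole table of tested genes, and 0.05 was the threshold. The SE of a log2 fold is its size divided by the square root of F. The steps were tested on simulated counts. DESeq2 1.42.0 was an alternative. Members were taken by symbol alone, but the family and the other lists were chosen with earlier results of these data known. Genes described in full were those past the threshold in mRNA or RPF (up to 12 by p), the 8 most abundant in mRNA, and for TE and RPF against mRNA up to 4 called members or the one with the smallest p; other members are named by counts and ranges. From other lists, up to 2 genes with the smallest p for ced-3 against WT mRNA were named; the genes called between the mutants were named after their values were seen. The worm sample block rests on a match by label. Each RPF library was paired with the mRNA library of the same genotype and replicate number. Over 12468 genes, the deviations of such a pair from their group means had a correlation of 0.22 (WT), 0.71 (ced-3) or 0.76 (pmk-1). Bounds from 3 counts cover counting error only.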

Additional observations from a re-analysis of the deposited data

How the results depend on the processing

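The alternatives were RLE factors, no filter on low counts, DESeq2, the compared genotypes alone, a replicate block and leaving out each library. None changed the sign of the 21 calls (246 values). For ced-3 against WT mRNA, calls went from 1 to 0 with RLE factors, with the compared genotypes alone or with the replicate block, 7 without the filter and 11 with DESeq2, and from 0 to 12 over the left-out libraries. For pmk-1 against WT mRNA they ranged from 0 to 2 on leaving out libraries. For ced-3 against pmk-1 mRNA, 8 became 4 with the replicate block (3 of them shared), 10 without the filter (4 shared), 16 with DESeq2, 0 with the compared genotypes alone, and 0 to 13 on leaving out libraries. In RPF, 0 calls for ced-3 against WT became 11 without the filter, 10 with DESeq2 and 0 to 9 on leaving out libraries; 6 for ced-3 against pmk-1 became 3 with the block (1 shared), 9 without the filter (4 shared), 12 with DESeq2, 0 with the compared genotypes alone and 0 to 11 on leaving out libraries. For RPF against mRNA in WT, 6 became 10 with worm samples paired and 1 to 6 on leaving out worm samples. RPF of pmk-1 against WT and TE stayed at 0 throughout. Calls over all genes moved in the same fits. For ced-3 against WT mRNA, 240 genes became 0 with the replicate block, 827 without the filter and 1337 with DESeq2. For ced-3 against pmk-1 mRNA, 1247 became 564, 1594 and 2079 in that order. In RPF, 7 became 0, 1012 and 1314 for ced-3 against WT, and 1088 became 496, 1713 and 1916 for ced-3 against pmk-1. A change in member calls is thus not particular to the members. Replicate numbers did not pair genotypes: same-numbered samples correlated at -0.12 to 0.10 across genes. Both ced-3 replicate 2 and pmk-1 replicate 1 were also removed, a choice made after seeing the data. The median log2 fold of ced-3 against WT was then 0.72 in mRNA and 1.02 in RPF, in place of 1.11 and 1.30. For ced-3 against pmk-1 in mRNA it was 0.98 in place of 1.26. Where an alternative left a group with a single library, that library was assumed to vary like the others. Fewer samples and degrees of freedom are part of each left-out fit; other causes were not tested. Depth limits the 6 untested genes.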

Other observations

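Markers of other tissues were read as a check of the whole-worm samples. The summed mRNA level of 5 intestine markers was 2115 and 2166 CPM in WT, 1490 and 1096 CPM in ced-3, and 1703 and 1750 CPM in pmk-1, a sum carried by act-5 and ifb-2. Of these, ifb-2, an intermediate filament gene of the gut, was lower in ced-3 than in WT by edgeR (log2 fold -1.60 ± 0.16, adjusted p = 0.0362). The esterase gene ges-1 did not pass and had 50.3 and 44.6 CPM in WT and 56.2 and 59.1 CPM in ced-3; elt-7 did not pass either and had 5.02 and 5.03 CPM in WT and 5.72 and 7.61 CPM in ced-3. Markers of body wall muscle, pharynx, neurons and germline, 4 each, were all tested, and none passed in mRNA for either mutant against WT by edgeR or DESeq2; unadjusted p fell below the threshold for 1 pharynx marker in ced-3 and 2 in pmk-1, and for none of the others. In ced-3 against pmk-1 mRNA, the comparison with most cuticlin calls, the pharynx myosins myo-1 (-0.84 ± 0.15, adjusted p = 0.0358, edgeR) and myo-2 (-0.82 ± 0.14, adjusted p = 0.0314) were lower, as they were in footprints. Of the intestine markers, ges-1 was higher (0.52 ± 0.12, adjusted p = 0.0486) and ifb-2 lower (-1.01 ± 0.15, adjusted p = 0.0296). Single markers were named after their values were seen. The 34 members other than cut-2 had 448 and 535 CPM of footprints in ced-3 against 370 and 280 CPM in WT and 222 and 279 CPM in pmk-1.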
